A study of Mus musculus with 6 samples.

Results

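The 9 genes followed here encode C-type lectin receptors of myeloid cells: Clec4n, Clec4d, Clec4e, Clec5a, Clec7a, Clec4a1, Clec4a2, Clec4a3 and Clec12a. They were taken by gene symbol, 9 of 55291 rows of the tables, and 8 of them passed the filter on low counts that left 12440 genes for testing. The family was chosen by the strong rise of Clec4n in shUSP8 over shCtrl, so every shUSP8 against shCtrl value of a member is a description, given without a p-value, and supports nothing. The calls of the members in the fit over all genes are part of that description. Bulk RNA was sequenced in 6 libraries. The cells were RAW264.7, a macrophage-like line of the mouse that was raised from ascites and that forms osteoclasts on RANKL. All 6 cultures had RANKL at 50 ng/mL for 4 days. In the 3 shCtrl libraries, whose genotype label is WT, the cells carried a control short hairpin, and in the 3 shUSP8 libraries, labelled USP8 Knock Down, a hairpin against Usp8, a deubiquitinating enzyme that acts on endosomes. The number of hairpins, their sequences and the culture behind each library are not given in the sources used here. P-values therefore reflect the spread among these libraries alone, and that spread may be technical. In bulk RNA, fewer cells of a type and less RNA per cell cannot be told apart.

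C-type lectin receptors are membrane proteins whose lectin-like domain binds sugars, glycolipids and other ligands on fungi, mycobacteria and dying cells. One set activates the cell: Dectin-2 (Clec4n), MCL (Clec4d) and Mincle (Clec4e) signal through the ITAM of the adaptor Fc receptor gamma chain (Fcer1g), MDL-1 (Clec5a) signals through DAP12 (Tyrobp), and Dectin-1 (Clec7a) carries its own short activating motif. These signals recruit the kinase Syk and the CARD9 complex. A second set, with DCIR (Clec4a2) and MICL (Clec12a), carries an inhibitory motif that recruits phosphatases such as SHP-1 (Ptpn6). ITAM signals through the same 2 adaptors are also known to be needed beside RANKL for osteoclast formation.

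In the shUSP8 libraries Usp8 itself was lower, at 2785, 2561 and 2645 expected counts in the control libraries against 656, 720 and 718 (log2 fold change -2.00). Total expected counts ran from 19973522 to 20213939 per library. The mean fragment length was not measured but estimated from the deposited counts and TPM of single-transcript genes. The estimate was 368.0 nt in shUSP8_2 and 301.2 ± 6.36 nt (SD) across the remaining 5 libraries. All 10 macrophage markers and all 11 osteoclast markers listed passed the count filter. Some of them were scarce, such as Mertk at 0.679 ± 0.0628 CPM in the controls. Of 10 neutrophil markers, 5 were at 0 in every library, and of 10 markers of T, B and NK cells, 7 were. The summed level of the neutrophil markers was 0.808 to 1.16 CPM in the controls and 2.73 to 3.19 CPM in shUSP8. That of the lymphoid markers was 1.31 to 1.60 CPM in the controls and 2.73 to 2.90 CPM in shUSP8. The summed level of the 10 dendritic cell markers was 47.9 to 50.5 CPM in the controls and 111.2 to 124.4 CPM in shUSP8, and 2 of them were at 0 in every library. Most of that sum was Itgax, at 42.0 ± 0.675 CPM in the controls and 113.3 ± 6.12 CPM in shUSP8, while Ccl22 went from 2.68 ± 0.700 to 0.681 ± 0.126 CPM and neither Zbtb46 nor Xcr1 was called. The summed level of the macrophage markers was 5122 to 5311 CPM in the controls and 6542 to 7096 CPM in shUSP8, and that of the osteoclast markers 13729 to 14185 and 11385 to 11748 CPM. Within the macrophage sum, Lyz2 went from 852.5 ± 20.5 to 2699 ± 168.1 CPM, while Cd68 went from 1841 ± 60.5 to 1435 ± 114.3 CPM. Csf1r and Spi1 were called lower too, but in TPM their groups overlapped. Of the 10 macrophage markers, 6 were called higher and 3 lower, beside 17.8% and 14.9% of all genes. On log2(TPM + 1), 6 were higher and 1 lower. The part of these markers in the values below was not tested.

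All 9 genes lie on chromosome 6 (GENCODE M21, GRCm38), in 3 places. A set of 6 forms a run of 368023 bases from 122921848 to 123289870, in the order Clec4a1, Clec4a3, Clec4a2, Clec4n, Clec4d and Clec4e. Clec12a and Clec7a lie together between 129342691 and 129472779, and Clec5a lies alone at 40574894 to 40585821. Within the run of 6, Clec4n, Clec4d and Clec4e are direct neighbours and take up 60028 bases. Clec4n (123229843 to 123247021) and Clec4d (123262111 to 123275265) are on the plus strand with 15089 bases between them. Clec4e (123281789 to 123289870) is on the minus strand, so that its end faces the end of Clec4d across 6523 bases. No other annotated gene overlaps these 3, and the Clec4a2 gene is the only member with an overlapping gene, a pseudogene (Gm44132) with a count of 0. Clec7a is annotated as a polymorphic pseudogene in this release.

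The bases just before the start of Clec4d and Clec4e, a pair of genes with almost the same fold change, are shown beside those of Clec7a, a fungal receptor that was not called. Each is the 250 bases before the RefSeq gene start (GRCm38.p6), 5′ to 3′ on the strand of the gene, with every motif found in capitals, and no GENCODE exon overlaps any of the 3. The RefSeq table held 8 of the 9 members, without Clec4n.
Clec4d, chr6:123261857-123262106, plus strand: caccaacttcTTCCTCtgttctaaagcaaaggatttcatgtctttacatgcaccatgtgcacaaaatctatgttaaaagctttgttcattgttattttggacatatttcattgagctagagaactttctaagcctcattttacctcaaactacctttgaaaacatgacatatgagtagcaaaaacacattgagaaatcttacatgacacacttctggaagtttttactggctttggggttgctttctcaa
Clec4e, chr6:123289872-123290121, minus strand: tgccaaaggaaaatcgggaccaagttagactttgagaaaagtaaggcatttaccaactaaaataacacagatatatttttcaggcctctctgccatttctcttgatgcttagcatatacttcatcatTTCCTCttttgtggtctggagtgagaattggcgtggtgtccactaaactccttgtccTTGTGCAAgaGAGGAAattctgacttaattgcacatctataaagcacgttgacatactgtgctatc
Clec7a, chr6:129472780-129473029, minus strand: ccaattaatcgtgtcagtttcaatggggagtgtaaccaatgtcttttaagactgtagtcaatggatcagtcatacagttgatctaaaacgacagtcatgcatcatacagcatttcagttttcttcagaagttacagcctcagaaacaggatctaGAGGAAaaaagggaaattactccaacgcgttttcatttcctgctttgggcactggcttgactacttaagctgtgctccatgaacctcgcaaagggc
A set of 7 motifs was searched on both strands: the PU.1 core GAGGAA, C/EBP (TTGCNNAA), the interferon response element (a pair of GAAA with any 2 bases between), AP-1 (TGANTCA), the antioxidant response element (TGACNNNGC), the E-box CACGTG and the NF-kB motif. The PU.1 core was found in all 3 windows, once in Clec4d, 2 times in Clec4e and once in Clec7a. The PU.1 core was also found in Clec4a1, Clec4a3, Clec5a and Clec12a, but not in Clec4a2. It occurs in 23.4% of 32536 mouse promoter windows of the same length. The C/EBP motif was found in Clec4e, at 66 to 59 bases before the start and 2 bases away from a PU.1 core at 56 to 51 bases before it, and occurs in 9.57% of all windows. Among the other members it was found in Clec12a. The interferon response element (2.98% of all windows), NF-kB (3.92%), antioxidant response element (10.2%) and E-box (6.04%) motifs were in none of the windows of the 8 members, and AP-1 (6.73%) was in that of Clec12a alone. Unlike the windows shown, those of Clec4a2, Clec5a and Clec12a and 1 window of Clec4a3 overlap GENCODE exons of the same gene. The windows of Clec4a2 and Clec12a lie inside the GENCODE gene, after its annotated start. A match is a run of letters, not a binding site.

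Across the 8 members tested, 4 were called higher and 2 lower in shUSP8 (edgeR, adjusted p under 0.05 over all genes), beside 17.8% of all genes tested called higher and 14.9% called lower. The groups did not overlap in CPM (counts scaled to a common library size) for the same 4 and 2, beside 24.6% of all genes higher without overlap and 23.1% lower without overlap. The median log2 fold change of the 8 was 0.22, beside -0.005 for all genes. Since the contrast chose the family, nothing is read from these shares. What the values show is a wide spread within the family: from 18.1-fold higher for Clec4n to 1.52-fold lower for Clec12a.

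**Figure D1:**
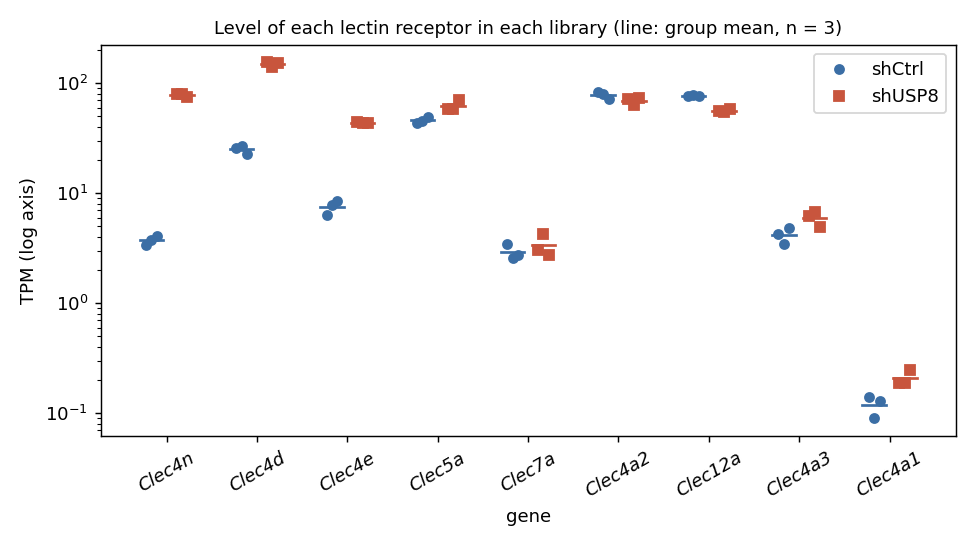
Level of each receptor in TPM (log axis) in the 3 shCtrl libraries (circles) and the 3 shUSP8 libraries (squares), with lines at group means. Clec4n, Clec4d and Clec4e stand well apart between the groups, while the other 6 genes differ by less. Among these 6, Clec12a is lower without overlap in TPM, and Clec5a, Clec4a3 and Clec4a1 are higher without overlap. The share of all genes without overlap in TPM was not computed, so nothing is read from this. On log2(TPM + 1), all genes together had a median log2 fold change of 0.11.

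The receptors that pair with the Fc receptor gamma chain held the 3 largest differences. Clec4n encodes Dectin-2, which binds fungal mannans. Its expected counts were 52, 59 and 67 in the controls and 1205, 1084 and 1084 after knock-down. Every shUSP8 library held more than every shCtrl library, and the spread within each group was small beside the gap. Its level was 3.03 ± 0.416 CPM in the controls and 54.7 ± 3.58 CPM in shUSP8 (SD, n = 3 per group), which is 4.17 on the log2 scale (SE 0.10). In TPM, which is per length, it read 3.39, 3.75 and 4.11 in the controls and 79.9, 79.0 and 75.2 in shUSP8.

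Clec4d encodes MCL, a partner of Mincle that also binds mycobacterial glycolipid. Its counts were 390, 418 and 382 in the controls and 2389, 2086 and 2201 after knock-down. The groups were far apart, although shUSP8_1 was above the other 2 knock-down libraries. The level went from 20.2 ± 0.796 to 108.3 ± 7.98 CPM, a log2 fold change of 2.42 (SE 0.07). Clec4e encodes Mincle, the receptor for the mycobacterial cord factor and for material from dead cells. Its counts were 224, 216 and 239 in the controls and 1252, 1259 and 1295 after knock-down, and the groups did not overlap. The level went from 11.5 ± 0.737 to 61.7 ± 1.34 CPM, again a log2 fold change of 2.42 (SE 0.07). In TPM, Clec4e read 6.39, 7.74 and 8.59 in shCtrl, an order that differs from its counts. The deposited count and TPM of shCtrl_1 imply an effective length 1.16 times the shCtrl mean for this gene, which has 7 transcripts of 370 to 4804 nt.

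Clec4d and Clec4e moved by almost the same factor, and the ratio of Clec4e to Clec4d in TPM was 0.306 ± 0.0683 in the controls and 0.295 ± 0.0123 in shUSP8. Clec4n moved further. Its ratio to Clec4d was 0.132, 0.139 and 0.183 in the controls and 0.518, 0.567 and 0.498 in shUSP8, and its ratio to Clec4e went from 0.498 ± 0.0285 to 1.79 ± 0.0530. In shCtrl the Mincle transcript was the more abundant of that pair per length in every library, and in shUSP8 the Dectin-2 transcript was.

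The step in the cluster lay between Clec4a2 and Clec4n, which are 85843 bases apart. On the far side of it, Clec4a2 was lower and Clec4a3 was not called. The 3 other protein-coding genes of the run, Clec4a4, Clec4b1 and Clec4b2, had a count of 0 in all 6 libraries. They were not detectable at this depth. Beyond the run, and named after the values were seen, the nearest tested genes were Necap1, an endocytic adaptor 32906 bases before Clec4a1 (edgeR log2 fold change 0.48 with SE 0.06, adjusted p = 6.3e-05), and Pex5, a peroxisomal import receptor 1106945 bases after Clec4e (0.15, SE 0.05, edgeR adjusted p = 0.0403). The next tested gene on each side was C3ar1, the receptor for complement C3a, 65686 bases before the run (1.29, SE 0.06, edgeR adjusted p = 1.9e-08), and Clstn3, a calsyntenin, 1140888 bases after it (0.71, SE 0.11, edgeR adjusted p = 0.000414). Higher genes thus also lay before the run, on the side of Clec4a1.

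**Figure D2:**
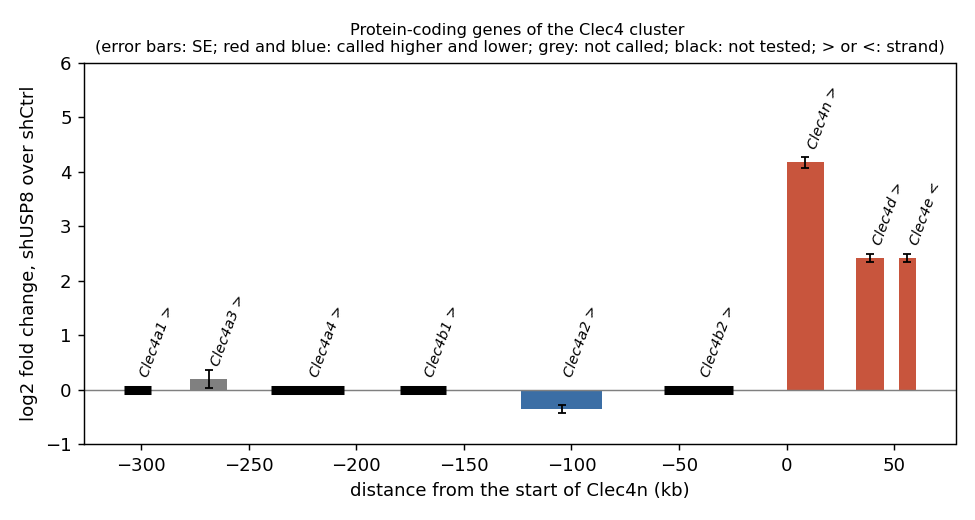
Log2 fold change of each protein-coding gene of the Clec4 run against its distance in kb from the start of Clec4n, with bars drawn over the extent of each gene and error bars showing the SE. The 3 neighbours on the right rise by 4.17, 2.42 and 2.42, and the genes on the left are lower (Clec4a2), not called (Clec4a3) or too low to test.

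Clec5a encodes MDL-1, which pairs with DAP12 and is known from joint inflammation and osteoclast formation. Its counts were 1029, 1020 and 1101 in the controls and 1231, 1261 and 1429 after knock-down. All 3 knock-down libraries were higher, but the gap between the groups was narrow. The level was 53.5 ± 2.94 CPM in the controls and 63.6 ± 5.39 CPM in shUSP8, a log2 fold change of 0.25 (SE 0.07). Its call was lost without shCtrl_1 (log2 fold change 0.23), without shCtrl_2 (0.22) or without shUSP8_3 (0.18). In TPM the ratio of the means was 1.35. On log2(TPM + 1), where all genes had a median of 0.11, Clec5a was higher by 0.31 relative to that median.

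Clec7a encodes Dectin-1, the receptor for fungal beta-glucan. It was scarce in these cells, with counts of 67, 81 and 82 in the controls and 91, 98 and 84 after knock-down. All 3 knock-down counts were above the control counts, but after scaling the groups overlapped. Its level was 3.91 ± 0.452 and 4.42 ± 0.315 CPM, with a log2 fold change of 0.18 (SE 0.14), and it was not called.

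The members with an inhibitory motif were lower. Clec12a encodes MICL, a receptor for uric acid crystals that restrains myeloid activation. Its counts were 2859, 2901 and 2984 in the controls and 2029, 2017 and 1981 after knock-down. The groups did not overlap and each was tight, at 148.5 ± 5.00 CPM in the controls and 97.7 ± 1.18 CPM in shUSP8. The log2 fold change was -0.60 (SE 0.05). Clec4a2 encodes DCIR, an inhibitory receptor of dendritic cells and macrophages. Its counts were 1273, 1387 and 1211 in the controls and 1118, 983 and 1068 after knock-down. The level went from 65.7 ± 3.91 to 51.4 ± 3.62 CPM, a log2 fold change of -0.35 (SE 0.07). In TPM the groups of Clec4a2 overlapped, with 83.3, 79.0 and 72.3 in the controls and 71.1, 63.8 and 72.7 in shUSP8, and its call was lost on log2(TPM + 1) (-0.17). On that scale all genes together had a median of 0.11, and relative to it Clec4a2 was lower by 0.28 and Clec12a by 0.56.

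The remaining members belong to the DCIR-like genes next to Clec4a2. Clec4a3 had counts of 65, 54 and 73 in the controls and 83, 77 and 71 after knock-down. The groups overlapped in CPM, at 3.26 ± 0.522 and 3.74 ± 0.293, and with a log2 fold change of 0.20 (SE 0.16) it was not called. In TPM its groups did not overlap, with 4.29, 3.43 and 4.86 in the controls and 6.17, 6.79 and 4.97 in shUSP8. The ratio of the TPM means was 1.43. On log2(TPM + 1), where all genes had a median of 0.11, Clec4a3 was higher by 0.32 relative to that median. Clec4a1 was at the edge of detection, with counts of 3, 2 and 3 in the controls and 4, 4 and 5 after knock-down, and was not tested. The expected counts of all 9 members were whole numbers in all 6 libraries, so none of them held a fractional share of fragments. Of the 31-base words in the transcripts of Clec4a2, 10.9% also occur in transcripts of other genes, most often of the paralogs Clec4a4 and Clec4b1. The share was at most 2.19% for the other 8 members.

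Per length, the order of the family changed between the groups. In shCtrl, Clec4a2 (78.2 ± 5.53 TPM) and Clec12a (77.2 ± 1.18 TPM) came first, and their ranges overlapped. Clec5a (46.0 ± 2.73 TPM), Clec4d (25.0 ± 2.31 TPM) and Clec4e (7.57 ± 1.11 TPM) followed, each apart from its neighbours. Clec4a3 (4.19 ± 0.720 TPM) and Clec4n (3.75 ± 0.360 TPM) did not differ beyond their spread, nor did Clec4n and Clec7a (2.92 ± 0.460 TPM). Clec4a1 was last at 0.120 ± 0.0265 TPM. In shUSP8, Clec4d came first (148.2 ± 7.84 TPM) and Clec4n second (78.0 ± 2.47 TPM), both apart from the next gene. Clec4a2 (69.2 ± 4.79 TPM), Clec5a (62.0 ± 6.78 TPM) and Clec12a (56.4 ± 1.89 TPM) overlapped from neighbour to neighbour. Clec4e (43.7 ± 0.687 TPM), Clec4a3 (5.98 ± 0.925 TPM), Clec7a (3.36 ± 0.815 TPM) and Clec4a1 (0.210 ± 0.0346 TPM) came below them in that order.

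The summed level of the 9 receptors was 246.7, 247.2 and 241.2 TPM in the controls and 473.2, 449.1 and 478.8 TPM in shUSP8. Of that sum, Clec4n, Clec4d and Clec4e together made up 14.8% ± 0.648 in the controls and 57.8% ± 1.29 in shUSP8. Clec4d alone took 31.7% ± 0.788 in shUSP8, against 10.2% ± 0.814 in shCtrl. Clec12a went from 31.5% ± 0.526 to 12.1% ± 0.228 of the sum and Clec4a2 from 31.9% ± 1.89 to 14.8% ± 0.534.

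The adaptor that Clec4n, Clec4d and Clec4e depend on did not pass the test. Fcer1g was at 69.7 ± 2.87 CPM in the controls and 68.6 ± 13.8 CPM after knock-down (edgeR log2 fold change -0.02 with SE 0.15, adjusted p = 0.922). The knock-down libraries were uneven, at 78.2, 52.8 and 74.6 CPM. Without shUSP8_2, the lowest of them, the log2 fold change was 0.13 (edgeR adjusted p = 0.102). In TPM, the summed level of these 3 receptors was 0.169, 0.177 and 0.171 times that of Fcer1g in the controls and 1.13, 1.30 and 1.06 times in shUSP8. Thus the 3 receptor transcripts together lay below their adaptor in each control library and above it in each knock-down library. Tyrobp, the partner of Clec5a, was at 440.9 ± 15.6 and 357.8 ± 71.7 CPM (edgeR log2 fold change -0.30 with SE 0.15, adjusted p = 0.194). It passed the test without shUSP8_1 (-0.44, edgeR adjusted p = 0.0404) and with effective-length offsets (-0.24, edgeR adjusted p = 0.0418). Without shUSP8_2, the library with the longest estimated fragments, the value was -0.15 (edgeR adjusted p = 0.0768).

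The listed signalling genes moved in both directions. The list was not limited to genes downstream of the receptors, and held the adaptors Fcer1g, Tyrobp and Hcst too. Of 27 listed and tested, 9 rose and 6 fell, beside 17.8% and 14.9% of all genes, with a median log2 fold change of 0.04 beside -0.005 for all genes. On log2(TPM + 1), 3 of them fell. Syk, the kinase that binds the ITAM, fell by 0.23 (SE 0.06, edgeR adjusted p = 0.0107). Card9, the adaptor that links Syk to NF-kB, rose by 0.22 (SE 0.06, edgeR adjusted p = 0.0192), and its partners Bcl10 (-0.06) and Malt1 (0.07) did not pass the test. Plcg2, the phospholipase activated by Syk, rose by 0.56 (SE 0.05, edgeR adjusted p = 3.2e-06), and Prkcd, the kinase that phosphorylates CARD9, by 0.18 (SE 0.05, edgeR adjusted p = 0.0155). The largest rise in the list was that of the Src-family kinase Fgr, from 14.6 ± 0.314 to 33.2 ± 2.77 CPM (log2 fold change 1.19). Pik3ap1, an adaptor to PI3 kinase, fell by 0.48 and the adaptor Lcp2 by 0.32. Ptpn6, the phosphatase recruited by Clec4a2 and Clec12a, fell by 0.21 (SE 0.06, edgeR adjusted p = 0.0166). The Syk call was lost without shCtrl_2 (edgeR adjusted p = 0.0563) or shUSP8_3 (0.0543) and on log2(TPM + 1), where it was -0.11 (limma adjusted p = 0.306). It was also lost with scaling to library totals (edgeR adjusted p = 0.0763). The Card9 call was lost without shCtrl_1 (edgeR adjusted p = 0.0826), shCtrl_3 (0.058), shUSP8_2 (0.0514) or shUSP8_3 (0.0651), and in DESeq2 (DESeq2 adjusted p = 0.0519). That of Prkcd was lost without shCtrl_1 (edgeR adjusted p = 0.0739) or shUSP8_3 (0.0603) and with effective-length offsets (0.10, edgeR adjusted p = 0.193). That of Ptpn6 was lost without shCtrl_1 (edgeR adjusted p = 0.0739), shCtrl_2 (0.0793) or shUSP8_3 (0.0915) and on log2(TPM + 1) (-0.08, limma adjusted p = 0.436). The Ptpn6 call was also lost with scaling to library totals (edgeR adjusted p = 0.118).

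**Figure D3:**
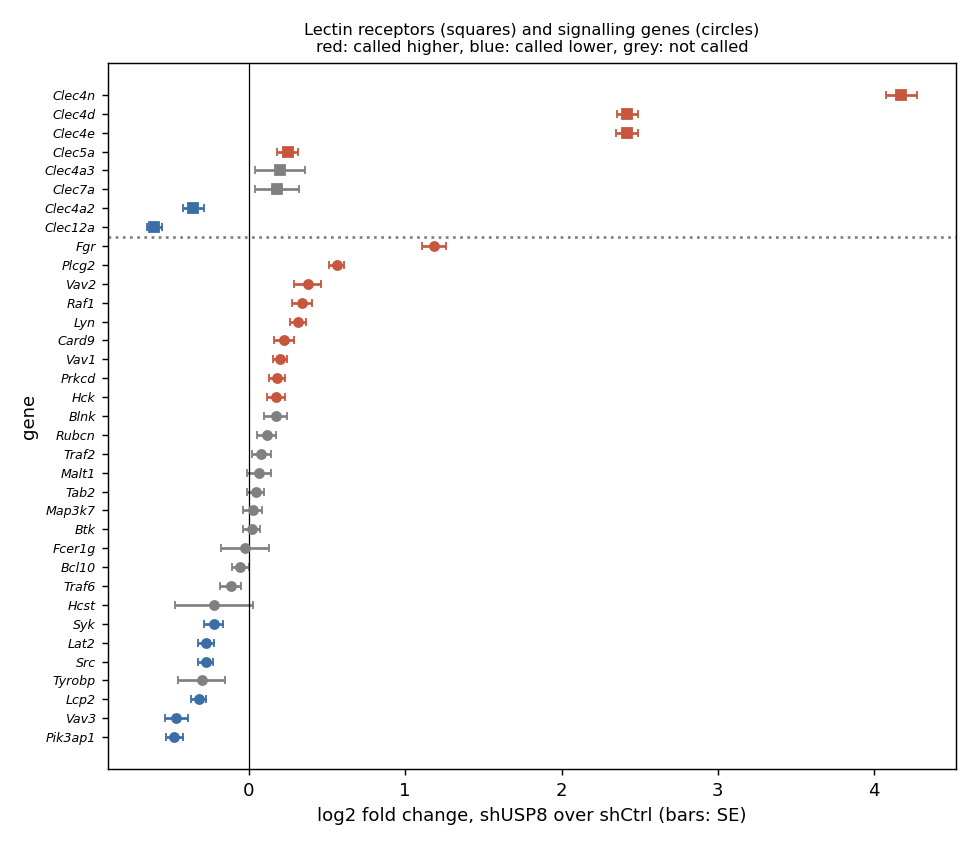
Log2 fold change with SE of the 8 tested receptors (squares) and of 27 signalling genes (circles), coloured by call. Clec4n, Clec4d and Clec4e lie at 2.42 or above, and every signalling gene lies between -0.48 and 1.19.

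Most other C-type lectin genes were at 0 or scarce in these cells. Of 46 listed, 18 were at 0 in every library and 11 could be tested, of which 4 rose and 2 fell, beside 17.8% and 14.9% of all genes, with a median log2 fold change of -0.01. Without shCtrl_1, shCtrl_2 or shCtrl_3, 1 of them fell, and none on log2(TPM + 1). Selp, the adhesion receptor P-selectin, rose from 19.3 ± 1.07 to 72.1 ± 5.84 CPM (log2 fold change 1.90). Thbd, thrombomodulin, rose from 2.96 ± 0.393 to 8.09 ± 0.254 CPM, and Cd302, an endocytic receptor, by 1.31. Olr1, the receptor for oxidised LDL, fell by 1.75 from 0.833 ± 0.129 CPM. Among the 11 tested, none had a higher edgeR log2 fold change than Selp. Without the count filter, 6 of the list were called higher. Lectins below the filter included Cd207, langerin, named after its values were seen, with counts of 2, 2 and 5 in the controls and 17, 8 and 10 after knock-down. Clec1b, the platelet and myeloid receptor CLEC-2 that lies between Clec12a and Clec7a, had an edgeR log2 fold change of -0.59 (SE 0.29; adjusted p = 0.139) and passed the test without shUSP8_3 (-0.93, edgeR adjusted p = 0.0434).

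The pattern most like that of Clec4n over the 6 libraries was found in Procr, Mmp12, Hal, Acod1 and Irf7. Likeness was the root mean square difference in log2 CPM after each gene was centred on its shCtrl mean, over the genes at or above a mean log2 CPM of 3. The difference was 0.121 for Procr, the protein C receptor, and 0.141 for Mmp12, macrophage elastase. It was 0.173 for Hal, histidine ammonia-lyase, 0.223 for Acod1, which makes itaconate, and 0.282 for Irf7, an interferon regulatory factor. Their log2 fold changes were 4.12, 4.31, 3.93, 3.92 and 4.56. All 5 reached that mean through the shUSP8 libraries, with shCtrl means of 2.12 to 5.32 CPM. With 2 groups of 3, such likeness is mainly a like fold change, in the contrast that chose Clec4n, and it is given as a description only.

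**Figure D4:**
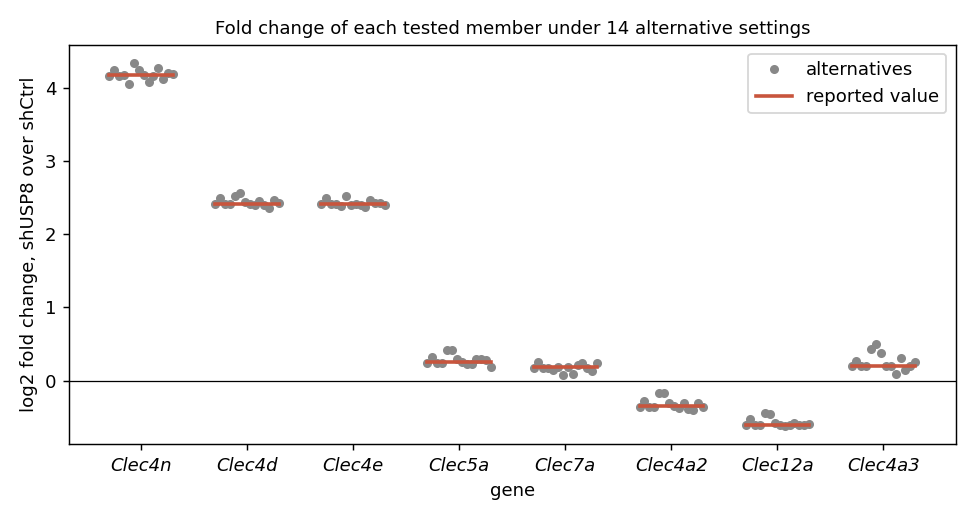
Log2 fold change of each tested member as reported (line) and under 14 alternative settings (dots). The dots of Clec4n lie between 4.06 and 4.35, those of Clec4d between 2.37 and 2.56 and those of Clec4e between 2.38 and 2.52, while those of the other 5 lie between -0.62 and 0.50.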

How the data were processed

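RNA from 6 libraries (3 shCtrl, 3 shUSP8) was read from both ends on the DNBSEQ platform. The deposited expected counts are estimates of fragments per gene, and the deposited TPM values are those counts per effective length, brought to a common total for every library. RSEM, DESeq2 1.28.1 and mm10 are named, without roles, per the submitters' processing notes. The aligner and annotation are not given in the sources used here. The table columns named WT hold the shCtrl libraries, by genotype label, and those named KO the shUSP8 libraries, since the labels give only 1 other genotype. Numbers within a group follow the sample titles. Usp8 counts check the groups but not these numbers.

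After rounding, counts entered edgeR 4.0.16 under R 4.3.3 with filterByExpr (at least 10 counts and 15 in total), TMM scaling, a robust quasi-likelihood F test and a Benjamini-Hochberg adjusted p under 0.05. SE was derived as the size of the log2 fold change over the root of F, so it is not a coefficient's own error. Limma 3.58.1 and DESeq2 1.42.0 served as alternatives. Effective-length offsets are count over TPM, for genes of at least 0.1 TPM in every library (12220 genes tested). Tested on 3 simulated draws of 12440 genes with 200 changed, edgeR recovered 76% of genes changed 1.5-fold and 96% of those changed 8-fold, while 6.35% of calls fell on genes left unchanged.

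The members and lists were chosen with earlier results of these data known. Named genes are Usp8, the members, tested genes between members of a run, 9 signalling genes chosen in advance (Fcer1g, Tyrobp, Syk, Card9, Bcl10, Malt1, Plcg2, Prkcd and Ptpn6), up to 4 called genes of each list by smallest p and the 5 genes most like Clec4n. Lists came from general knowledge. Beside 17.8% of all genes called higher and 14.9% lower, those for markers gave 6 macrophage genes higher and 3 lower of 10, 6 osteoclast genes lower of 11, and 1 dendritic gene higher and 1 lower of 4 tested (2 higher without shCtrl_3 or shUSP8_2). On log2(TPM + 1), 1 macrophage gene was lower, and 4 osteoclast genes were lower and 1 higher. With any library left out, 5 osteoclast genes were lower. Both neutrophil genes tested (of 10) and the 1 lymphoid gene tested (of 10) were higher. The neutrophil gene S100a8 lost its call without shCtrl_1, shCtrl_2, shCtrl_3, shUSP8_1 or shUSP8_3 (edgeR adjusted p 0.0798 to 0.159). No set test was run. Libraries with the same number were not treated as pairs: the deviations of same-numbered libraries correlated at -0.00733, 0.0781 and -0.0542. As a check for repeats of a library, the chi-square per gene was 2.26 for shCtrl_1 with shCtrl_2 and 5.06 to 18.3 for the remaining pairs inside a group.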

Additional observations from a re-analysis of the deposited data

How the results depend on the processing

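The rises of Clec4n, Clec4d and Clec4e and the fall of Clec12a kept their direction and call under all 14 alternatives. The number of members called lower was 1 on log2(TPM + 1) and on log2(TPM + 0.1), where Clec4a2 lost its call; the cause was not tested. With a library left out, 3 to 4 members were called higher and 2 lower. The replicate block left 4 members higher and 2 lower, with Clec4n at 4.17, and changed no call of a member. Same-numbered libraries share only a number. The block moved the calls over all genes to 2021 higher and 1690 lower, from 2218 and 1859.

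Over all genes, effective-length offsets called 1474 higher and 1205 lower, library totals 1172 lower, and log2(TPM + 1) and log2(TPM + 0.1) 500 and 492 lower. With a library left out, 1675 to 2349 genes were higher and 1239 to 2077 lower (lowest without shCtrl_2). The share of calls that were higher was 54.4% with TMM, 72.6% with library totals and 82.6% on log2(TPM + 1). Among all listed genes, 27 were lower, against 12 on log2(TPM + 1) and 13 on log2(TPM + 0.1). The order of levels in CPM, which ignores length, placed Clec12a at 1 in shCtrl and Clec4n at 5 in shUSP8, counting from the highest. Clec4a1 and Clec7a rest on few counts, which limits what could be detected.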

Other observations

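Of 16 other receptors listed as partners of Fcer1g or Tyrobp, 14 were in the tables and 11 were tested. In shUSP8, 8 rose and 1 fell at an edgeR adjusted p under 0.05, beside 17.8% and 14.9% of all genes, with a median log2 fold change of 0.84 beside -0.005 for all genes. These counts and the median include Milr1 (1.18, called higher), named after its value was seen. Milr1 is an inhibitory receptor, not a partner of Fcer1g or Tyrobp. Fcgr3, a low-affinity receptor for IgG that is also a macrophage marker, rose from 5.25 ± 0.658 to 20.8 ± 1.63 CPM (edgeR log2 fold change 1.98 with SE 0.11, adjusted p = 4.1e-08). Trem3, a TREM-family receptor, rose from 1.02 ± 0.183 to 7.78 ± 0.826 CPM, and Sirpb1a, an activating receptor of the SIRP family, from 0.763 ± 0.170 to 5.89 ± 0.769 CPM. Cd300ld rose from 36.6 ± 0.942 to 65.7 ± 3.23 CPM. The gene that fell was Pira2, named after its value was seen (-0.61), an activating receptor of the paired immunoglobulin-like family. The expected counts of Fcgr3, Sirpb1a, Cd300ld and Pira2 were fractional in all 6 libraries, so their values are uncertain.

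Of 28 listed genes that macrophages induce on lectin receptor ligation, 20 were tested, of which 8 rose and 2 fell, beside 17.8% and 14.9% of all genes, with a median log2 fold change of 0.06. Ptgs2, cyclooxygenase-2, rose from 1.00 ± 0.295 to 8.27 ± 2.11 CPM, Nos2, inducible nitric oxide synthase, from 3.06 ± 0.566 to 9.45 ± 0.620 CPM, and Il1rn, the interleukin-1 receptor antagonist, from 558.4 ± 25.3 to 801.9 ± 22.6 CPM. Egr3, an early growth response factor, fell from 8.59 ± 0.981 to 3.79 ± 0.147 CPM. Of 15 genes tested from a list of genes that dampen such signals, 3 rose and 6 fell, beside the same shares of all genes. The list also held Trim62 and Ptpn11, which can promote such signals and were not called. Without shUSP8_1, 5 of the 15 rose, and without shCtrl_2, 3 fell. Dusp1, a MAP kinase phosphatase, rose by 1.53, and the phosphatase Ptpn22 and the adaptor Dok2 fell by 0.55 and 0.37. On log2(TPM + 1), 1 of the 15 fell, and Dok2 was at -0.14 (limma adjusted p = 0.156).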
